A study of Mus musculus with 5 samples.

Results

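Tissue recovered 2 weeks after transplantation of a mouse kidney bud was compared, gene by gene, with the kidney of the mouse embryo at stage E13.5. Each tissue was measured on 1 one-colour Agilent expression array. Of 24563 genes named on the array, 18264 were well above background in the transplant, in the E13.5 kidney or in both, and these are the genes compared. 15846 were measured on both arrays, 1951 on the transplant array only and 467 on the E13.5 array only. Both samples were of the C57BL/6 strain, with no treatment named in the labels. The series has 3 further arrays, from newborn (P0) kidney, 8-week kidney and transplant tissue at 4 weeks, whose levels are given here only beside those of single genes. The sources used here do not give the cells that made up the buds, the site of transplantation or the share of the recipient's own cells in the recovered tissue.

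The mouse kidney forms when the ureteric bud branches into a mesenchyme that holds nephron progenitors. Progenitors next to the bud tips condense, become epithelial and pattern into podocytes, proximal tubule, loop of Henle and distal tubule, while the bud becomes the collecting duct. At E13.5 branching and nephron induction are under way, many cells divide, and the tubule segments have barely begun to differentiate. An organ bud is a condensate of cells prepared for transplantation, so the comparison asks how far the transplanted tissue had left the embryonic state, and which other tissues' genes it held.

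A level is log2 of a probe's background-subtracted intensity minus log2 of the 75th percentile of its own array, so that 0 is the level of that percentile. A difference is the level in the transplant minus the level in the E13.5 kidney. Where a gene was well above background on 1 array only, its difference is a bound, written "at least". By this rule a gene measured on the transplant array only had a positive difference or 0, so it could not count as lower. Genes measured on the E13.5 array only could likewise not count as higher. There was 1 array per tissue and no replicate. The differences therefore carry no p-value, and the counts describe these 2 libraries. Where a probe had several spots, their median SD was 0.0511 in the transplant and 0.0597 in the E13.5 kidney, which is spot error alone. Both arrays lay on slide 1. In bulk tissue, fewer cells of a type and less RNA per cell cannot be told apart.

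At a 4-fold difference, 2070 genes were higher in the transplant, which is 11.3% of the genes compared, and 989 were lower, which is 5.42%. The share of higher genes among these was 67.7%, against 53.1% when arrays were aligned on their medians and 15.5% after a plain normexp background correction, which estimated the mean background of the E13.5 array at -992. At 2-fold, the threshold used for gene groups, 3917 genes (21.4%) were higher and 3706 (20.3%) lower. Of the rest, 9602 were measured on both arrays and lay within 2-fold, and 1039 were measured on 1 array, with bounds under 2-fold that do not limit how large the difference was. The median over all genes compared was -0.11. The large differences lay mostly on the higher side: 132 genes were at least 64-fold higher and 18 at least 64-fold lower.

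**Figure D1:**
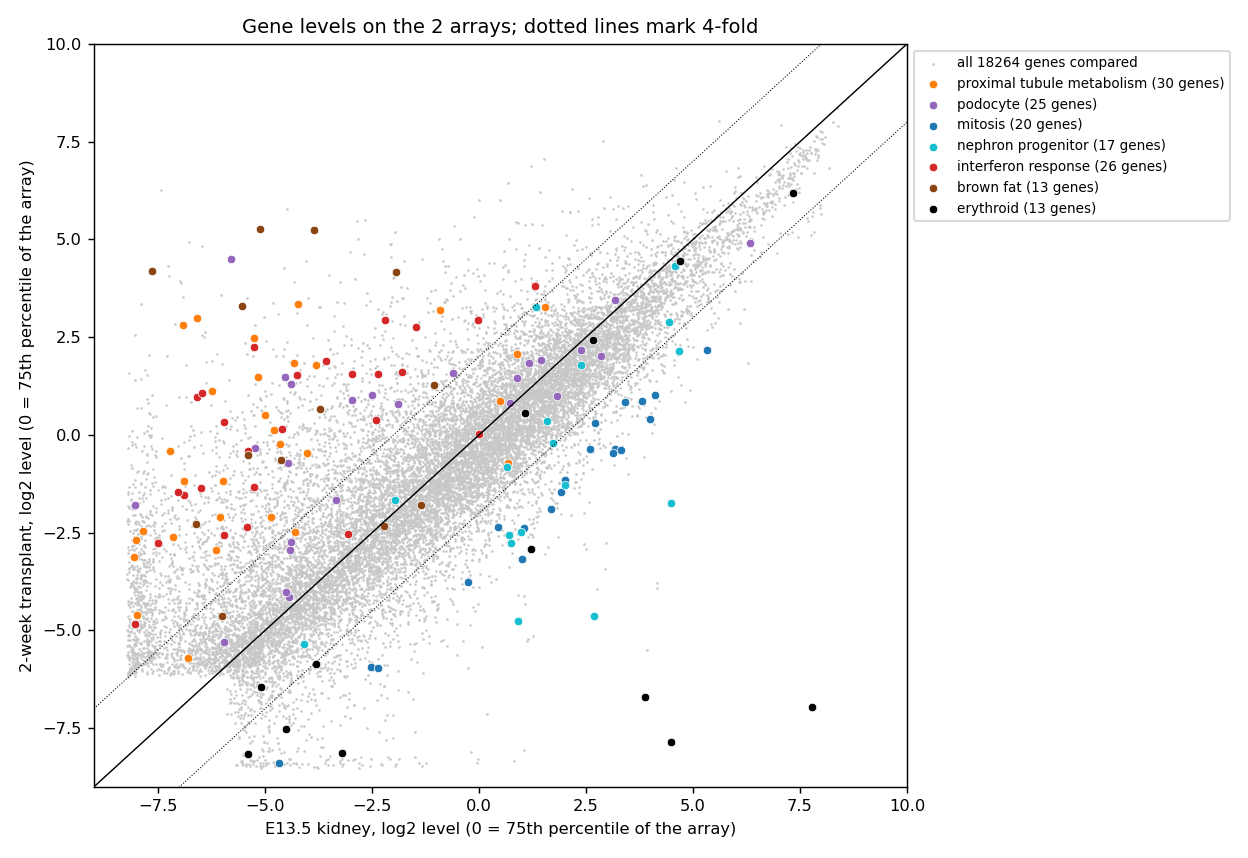
Log2 level in the 2-week transplant (vertical axis) against log2 level in the E13.5 kidney (horizontal axis), 1 point a gene, both relative to the array's 75th percentile; coloured points are members of the named lists, drawn at their measured values also where dim, the solid line marks equality and the dotted lines a 4-fold difference. All 20 mitosis genes lie below the line of equality, while 27 of 30 proximal tubule metabolism genes and 24 of 26 interferon response genes were at least 2-fold higher.

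Nephron progenitor genes were lower. Of 17 compared, 13 were at least 2-fold lower and 1 at least 2-fold higher, with a median difference of -1.93 against -0.11 over all genes. Six2, the transcription factor that keeps progenitors from differentiating, had a level of 4.68 in the E13.5 kidney and 2.14 in the transplant, where it was still well above background. In the P0 kidney it was 3.45, in the 4-week transplant 0.38, and in the 8-week kidney it was not well above background. Cited1, which marks the least committed progenitors, went further, from 4.48 to -1.73, a 74.5-fold difference. Gdnf, the growth factor through which progenitors draw the bud, was 2.69 in the E13.5 kidney and -4.63 in the transplant. Sall1 differed by -3.46, Meox1 by -1.93, Osr1 by -1.48 and Pax2 by -1.24. Eya1, a partner of Six2, differed by only -0.23, and Crym was the member that was higher, by 1.94.

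On the side of the ureteric bud, tip genes were lower, while trunk genes had no common direction. 8 of 10 bud tip genes were lower and none higher, with a median of -2.27. Ret, the receptor for Gdnf, was -1.30 in the E13.5 kidney and -2.57 in the transplant, a 2.42-fold difference, which is far smaller than that of its ligand. The targets of Ret signalling Etv4 and Etv5 differed by -3.10 and -1.95, and Gfra1, the co-receptor, by -2.60. Of 13 ureteric stalk genes 4 were higher and 2 lower, beside 21.4% and 20.3% of all genes, with a median of 0.20. The epithelial genes Cdh16, Krt19 and Cdh1 were among the higher ones, at 2.78, 2.36 and 1.59. Wnt9b, the stalk signal that induces nephrons, differed by -1.60. Calb1, Gata3 and Wnt7b of the same list differed by -1.42, -1.0 and -0.77. Inducing signals and the first nephron patterning genes were divided. Of 17 compared, 8 were lower and 4 higher, beside 20.3% and 21.4% of all genes, with a median of -0.27. Among the lower ones, Wnt4 differed by -1.55, Fgf8 by -4.89, Dkk1 by -4.30 and the Notch target Hes5 by -2.79. Irx1, Irx2 and Lfng were higher by 1.47, 1.82 and 1.55, and Jag1, a Notch ligand of the early tubule, differed by -0.12.

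Podocyte genes were higher in part. Of 25 compared, 13 were at least 2-fold higher and 1 lower, with a median of 1.48. Podxl encodes podocalyxin, the charged coat protein of podocyte foot processes. It was -2.97 in the E13.5 kidney and 0.89 in the transplant, a 14.5-fold difference. The P0, 8-week and 4-week transplant levels of Podxl were -0.76, -0.83 and 0.11, all below that of the 2-week transplant. Other structural genes of the mature cell were also higher, Clic5 by 5.70 and Col4a4 by 3.73, although the probes of Col4a4 ranged down to 1.01. Synpo was 3.52 higher by the probe used, and 0.15 by another. The transcription factors Tcf21, Lmx1b and Foxc2 stayed within 2-fold, at 0.68, 0.29 and -0.82. Cdkn1c, which holds podocytes out of the cell cycle and is imprinted, was 6.34 in the E13.5 kidney and 4.92 in the transplant.

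Proximal tubule transport genes were higher in 27 of 31 compared and lower in none, with a median of 3.08. 22 of the 31 were well above background on 1 array only, so that most of these differences are lower bounds. Slc34a1, the main renal phosphate transporter, was not well above background in the E13.5 kidney and 0.48 in the transplant, at least 82.8-fold higher, although 2 of its probes gave bounds of 6.37 and 5.14. That level lay below the P0 kidney's 3.39 and the 8-week kidney's 7.24. The glucose transporter Slc5a2 was higher by at least 6.21, the drug and toxin exporter Slc47a1 by at least 6.14, the lactate transporter Slc5a12 by at least 4.86, and Slc22a6, an organic anion transporter measured on both arrays, by 3.49. The receptors that take up filtered protein, Lrp2 and Cubn, were already measured in the E13.5 kidney at -2.84 and -4.61 and were -0.88 and -2.61 in the transplant. Slc26a1 differed by 0.26. Slco1a6, Slc5a8 and Slc5a1 were measured on the transplant array only, with bounds of 0.12, 0.35 and 0, so that no upper limit can be given for them.

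The enzymes of the proximal tubule gave the highest median of any nephron list, 3.95, with 27 of 30 genes higher and 1 lower. Of the 30, 14 were measured on 1 array only. The glucose-synthesis enzyme Fbp1 was -3.81 in the E13.5 kidney and 1.79 in the transplant. The inositol oxygenase Miox was higher by 6.16, the brush border protease Mep1a by at least 7.01 and Gsta2, a glutathione transferase, by 6.64. In the 8-week kidney Fbp1 reached 7.93, and in the 4-week transplant 0.67. 2 members of this list, Pck1 and Cyp2e1, are also made by fat cells, and their levels in the 4-week transplant, 4.73 and 5.71, were above those in the 2-week transplant, 2.80 and 2.47. The adipocyte list moved with them, with 15 of 16 genes higher and a log2 summed level of 8.17 in the transplant against 3.17 in the E13.5 kidney, and its part in these 2 differences was not tested.

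Promoter sequence was available for 25 of the transport genes and 23 of the enzyme genes. An HNF4 element, CAAAGTCCA on either strand, was present in 1 of 32 promoters of the transport genes. Among 31 promoters of the enzyme genes 2 held it, both of 1 gene. Its share over all 32851 promoters searched was 0.475%. Each promoter ran from 250 bases before a transcription start to 50 after it. Hnf4a, the receptor known to bind such elements, was itself 2.85 higher in the transplant, and its binding to these promoters was not tested. Because these matches are few, the 2 genes that had one near the start are shown: Agxt2, an aminotransferase, and Slc3a1, a subunit of the cystine transporter. Each line gives the 150 bases before the start, 5′ to 3′ on the gene's strand, from RefSeq on the GRCm38.p6 build, with the element in capitals.
Agxt2, chr15:10358383-10358532, plus strand: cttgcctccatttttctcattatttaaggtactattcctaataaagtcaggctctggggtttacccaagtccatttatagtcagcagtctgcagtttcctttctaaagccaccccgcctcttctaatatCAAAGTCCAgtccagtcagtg
Slc3a1, chr17:85028197-85028346, plus strand: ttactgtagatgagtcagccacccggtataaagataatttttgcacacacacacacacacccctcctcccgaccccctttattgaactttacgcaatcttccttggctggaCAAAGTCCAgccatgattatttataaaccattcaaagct
The element lay 21 bases before the start in Agxt2 and 39 in Slc3a1, counted from its first base. Agxt2 was not well above background in the E13.5 kidney and -2.11 in the transplant, at least 13.8-fold higher. Slc3a1 was likewise only measured in the transplant, at -2.11, and at least 13.8-fold higher.

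Further along the nephron, 11 of 15 genes of the loop of Henle were higher and none lower, with a median of 2.40. Bsnd, the chloride channel subunit barttin, was -4.96 in the E13.5 kidney and -0.19 in the transplant, below its P0 level of 0.47. Slc12a1, the target of loop diuretics, was at least 8.64-fold higher, and the tight junction gene Cldn10 higher by 4.74. Distal tubule genes were higher in 8 of 14 and lower in 1, with a median of 1.36. S100g, which carries calcium through the cell, was -3.01 in the E13.5 kidney and 4.67 in the transplant, 205-fold higher, Fxyd2 was higher by 5.47, and the thiazide-sensitive cotransporter Slc12a3 was higher by at least 3.28. Pvalb, Wnk4 and Slc8a1 stayed within 2-fold by the probes used, with another probe of Slc8a1 at 1.09.

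In the collecting duct, principal cell genes were higher in 9 of 12 and lower in none, with a median of 2.05. The water channels stood out: Aqp3 was -3.64 in the E13.5 kidney and 1.25 in the transplant, Aqp4 was higher by 4.91 and Aqp2 by 4.18. The sodium channel subunits Scnn1a, Scnn1b and Scnn1g were higher by 2.01, 3.06 and at least 2.09. Avpr2, the vasopressin receptor, differed by 1.14. Gata3, which the bud expresses from the beginning, differed by -1.0. Intercalated cells, which secrete acid or base, had 16 of 18 genes higher and 1 lower, with a median of 2.92. Foxi1, their master regulator, was -3.33 in the E13.5 kidney and 0.32 in the transplant, between the P0 level of -0.19 and the 8-week level of 0.98. Subunits of the proton pump in this list were higher, Atp6v0d2 by at least 5.36, Atp6v0a4 by 5.54 and Atp6v1b1 by at least 4.29. Another probe of Atp6v0d2 gave 3.74. Across all 26 subunits of that pump 10 were higher and 1 lower, and the median was 0.63. The list's exception, Slc4a1, is also the anion exchanger of red blood cells and differed by -1.83.

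Hormone and regulator genes of the kidney were higher in part. Of 8 renal endocrine genes 5 were higher and none lower, with a median of 2.97, among them Agtr1a by 5.03, Pappa2 by 4.73 and Kl, the co-receptor for a phosphate-lowering hormone, by at least 4.01. Cyp27b1, which activates vitamin D, was at least 1.15-fold higher and dim, and Nos1 differed by -0.33. Among 15 transcription factors of tubule maturation 8 were higher and 1 lower, with a median of 1.10. The bile acid receptor Nr1h4 was higher by at least 4.76, Foxi1 by 3.65 and the fatty acid receptor Ppara by 3.46 (1.08 by another probe), whereas Tfap2a differed by -1.48. Genes known to rise in injured tubules were higher in 8 of 13 and lower in 1, beside 21.4% and 20.3% of all genes, with a median of 1.72. Lcn2 was higher by 5.51, Spp1 by 5.58 and the protease inhibitor Timp1 by 3.00. Havcr1, a marker of injured proximal tubule, was higher by at least 0.41, and Krt20 differed by 0.65. Lcn2 is also made by neutrophils and Spp1 by macrophages and bone cells. 8 of 13 neutrophil genes, 16 of 18 macrophage genes and 7 of 10 bone genes were higher, and their part in these differences was not tested.

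Pairs of related genes of which one is used early and the other late were compared within single families. Of 13 such pairs with both genes compared, the late member had the higher signed difference in 12, by the probes used. The exception was serum albumin, with a bound of -1.44 for Alb against -0.83 for its fetal relative Afp. The late genes Col4a3, Slc2a2, Slc12a1, Cldn2 and Slc5a8 were measured on the transplant array only, so they could not count as lower. The early globins Hbb-bh1 and Hba-x, measured on the E13.5 array only, could not count as higher. Since the pairs were picked by known early and late use, and bounds have a fixed side, the count is a description only. In the glomerular basement membrane the early chains Col4a1 and Col4a2 were higher by 2.02 and 1.98, and the late chains Col4a3 and Col4a4 by at least 4.12 and 3.73. The laminin chains Lamb1 and Lamb2 differed by 0.12 and 2.17, and Lama1 and Lama5 by -0.79 and 0.95. The claudin of immature epithelium, Cldn6, differed by -2.57, and Cldn2 of the proximal tubule was higher by at least 4.47, although another probe of it gave 0.54. Igf2 differed by -1.73 and Igf1 by 3.13, while another probe of Igf1 gave 0.06. Glucose transporters followed the same order, with Slc2a1 at -0.95 and Slc2a2 at or above 3.23.

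**Figure D2:**
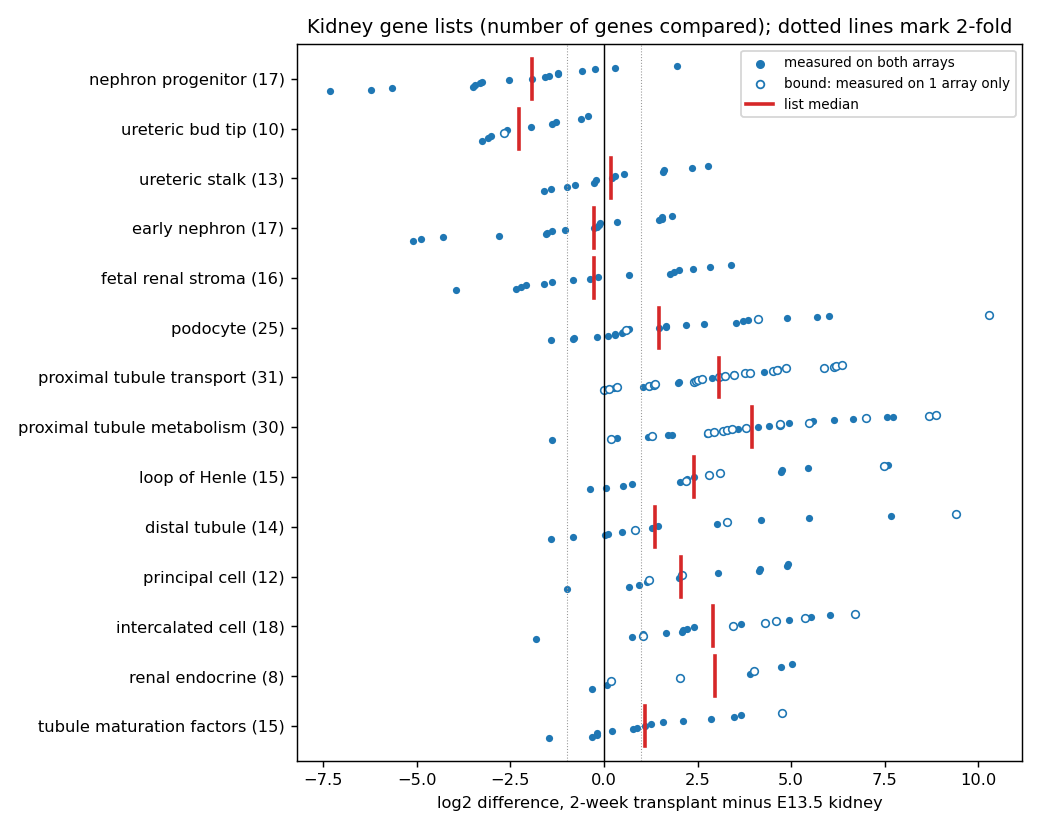
Difference in log2 level, transplant minus E13.5 kidney (horizontal axis), of every compared member of the nephron lists (rows), 1 point a gene, with the list's median as a red bar and dotted lines at 2-fold; open points are bounds from genes well above background on 1 array only. Medians run from -2.27 in the ureteric bud tip list and -1.93 in the nephron progenitor list to 3.08 and 3.95 in the proximal tubule lists.

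The dividing state was lower throughout. All 23 DNA replication genes, all 20 mitosis genes and 11 of 12 genes of the G1 to S transition were at least 2-fold lower, beside 20.3% of all genes, with medians of -2.67, -3.38 and -2.12. Mki67, the usual marker of cycling cells, was 3.42 in the E13.5 kidney and 0.83 in the transplant. Ccnb1, the mitotic cyclin, went from 3.31 to -0.38 and Mcm5, part of the replicative helicase, from 3.33 to 0.05. These 3 genes remained well above background in the transplant, and in the 8-week kidney their levels were lower still: Mki67 stood there at -2.90, Ccnb1 at -4.16 and Mcm5 at -2.20. In the families defined by symbol, 17 of 21 MCM and origin licensing genes and 18 of 21 centromere proteins were lower and none higher. Cell cycle inhibitors went the other way, with 7 of 11 higher. Cdkn2a and Cdkn2b, neighbouring inhibitors that accumulate in ageing and stressed cells, were not well above background in the E13.5 kidney and were 0.10 and 0.39 in the transplant, at least 63.6-fold and 68.6-fold higher. Other probes of both gave smaller bounds, of 1.82 and 3.39. Cdkn2c was higher by 4.07, and Cdkn1c was the member that was lower.

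Promoters of the mitosis genes shared 2 short motifs. The CCAAT box, CCAAT on either strand, was present in 15 of 18 mitosis promoters (83.3%), beside 37.4% of all promoters, 47.1% of those of genes at least 4-fold lower and 655 of the 1870 promoters of those at least 4-fold higher. The CHR element, TTTGAA on either strand, through which genes of the G2 and M phases are known to be repressed in resting cells, was present in 12 of the 18 (66.7%), beside 17.9% of all promoters. It was present in 13.6% of DNA replication promoters. The same 12 mitosis promoters held both motifs, beside 6.95% of all. 4 promoters with both motifs close to the start show the arrangement, 150 bases before the start on the gene's strand (RefSeq, GRCm38.p6), with both motifs in capitals, as CCAAT or its complement ATTGG and as TTTGAA or its complement TTCAAA.
Kif11, chr19:37376232-37376381, plus strand: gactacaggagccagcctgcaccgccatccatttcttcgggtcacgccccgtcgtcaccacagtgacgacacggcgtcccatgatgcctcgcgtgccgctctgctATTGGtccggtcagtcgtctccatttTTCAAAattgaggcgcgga
Top2a, chr11:99024190-99024339, minus strand: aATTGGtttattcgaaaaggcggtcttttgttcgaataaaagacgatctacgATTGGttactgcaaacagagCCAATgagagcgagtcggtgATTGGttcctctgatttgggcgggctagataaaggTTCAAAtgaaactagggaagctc
Cdc20, chr4:118437344-118437493, minus strand: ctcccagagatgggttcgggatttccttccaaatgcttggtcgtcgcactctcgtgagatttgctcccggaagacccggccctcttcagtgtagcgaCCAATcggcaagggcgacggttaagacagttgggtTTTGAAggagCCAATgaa
Cdk1, chr10:69352913-69353062, minus strand: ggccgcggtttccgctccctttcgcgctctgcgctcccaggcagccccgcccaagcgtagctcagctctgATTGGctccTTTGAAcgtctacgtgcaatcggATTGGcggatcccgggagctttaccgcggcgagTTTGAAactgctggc
A CHR element lay 19 bases before the start in Kif11, 23 in Top2a, 18 in Cdc20 and 15 in Cdk1, with at least 1 CCAAT box further from the start in each. Kif11, a motor of the spindle, was -0.25 in the E13.5 kidney and -3.76 in the transplant. Top2a, which untangles DNA, was 1.92 and -1.45, the mitotic exit factor Cdc20 was 4.10 and 1.02, and the mitotic kinase Cdk1 was 2.59 and -0.36. A motif match is a description of these letters and does not show that a factor was bound.

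Genes that time fetal growth were lower as a group. 9 of 10 were lower and none higher, with a median of -3.56. Hmga2, a chromatin protein of fetal progenitors, was 4.15 in the E13.5 kidney and -3.79 in the transplant, a 246-fold difference seen by both of its probes. Lin28b, which blocks the maturation of let-7 miRNAs, was -0.02 in the E13.5 kidney and not well above background in the transplant, at least 71.9-fold lower, while its other probe gave a bound of -1.43. Igf2bp1, an RNA-binding protein of the same circuit, differed by -6.42, and the ubiquitin ligase Trim71 was lower, at least 14.8-fold, while another probe gave -1.31. Of 21 imprinted genes 16 were lower and 2 higher. H19 had levels of 7.45 and 5.06, while Mest differed by -4.44, Peg3 by -2.56 and Dlk1 by -1.64. Meg3, Igf2r and Gnas stayed within 2-fold by the probes used, although those of Gnas ranged from -0.96 to 1.85, and Dio3 and Sgce were the 2 that were higher. Mirg, an RNA of the same cluster as Meg3, differed by -8.07 by the probe used, against -1.80 by another of its 3 probes.

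Chromatin, RNA and protein synthesis genes were lower by smaller amounts. Of 15 genes of DNA methylation and chromatin 11 were lower and none higher. Hells differed by -3.63, Uhrf1 by -3.43, Ezh2 by -3.23 and Dnmt3b by -2.43, whereas the demethylases Tet2 and Tet3 stayed within 2-fold by the probes used, with others at 1.54 and -1.40. Among the families, 43 of 52 splicing factors, 26 of 56 translation factors, 17 of 33 tRNA synthetases and 141 of 366 Zfp zinc finger genes were lower. In the first 3 of these families no gene was higher, and 18 of the Zfp genes were. Hox genes, which keep the positional code, were lower in 20 of 36 and higher in none, with a median of -1.11. Hoxd12 was 1.05 in the E13.5 kidney and not well above background in the transplant, at least 151-fold lower. The median difference of genes measured on both arrays was -0.15 at the lowest levels and -0.59 among the 209 most abundant. Cytosolic ribosomal proteins had a median of -0.71, which was -0.11 after quantile normalization, while that of the splicing factors was -1.21.

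Metabolic lists differed in direction and in size. Fatty acid oxidation genes were higher in 13 of 20 and lower in none, with a median of 1.25: Acadm and Acadvl were higher by 2.32 and 2.35, and Cpt1b, the isoform of muscle and brown fat, by 4.68. The adipocyte and brown fat lists, with medians of 4.80 and 4.37, moved with these genes, and their part in the difference was not tested. Glycolysis genes were lower in 7 of 18 and within 2-fold in 9, with a median of -0.78. Among the 209 most abundant genes measured on both arrays the median was -0.59. Hk2 differed by -1.31 and Pgk1 by -1.44, and Slc16a3, which exports lactate, was lowest, at -2.80. Pfkp and Aldoc were the 2 higher members, and for Pfkp another probe gave -0.98. Cholesterol synthesis genes were lower in 10 of 16 and higher in none, with a median of -1.25. Cyp51 differed by -2.27 and Fdps by -2.04. The respiratory chain was nearly level: 46 of 47 complex I genes and all 17 ATP synthase genes stayed within 2-fold, and 15 of 19 genes of the citric acid cycle did. Of the 16 cytochrome c oxidase genes compared 2 were higher. Cox8b, the subunit isoform of brown fat and muscle, was -5.13 in the E13.5 kidney and 5.27 in the transplant.

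Signalling pathways of the embryo showed no single direction. FGF response genes were lower in 6 of 9 and higher in none, with a median of -1.35, while Wnt target genes were lower in 2 of 9 and higher in none, near the background share. Notch genes were higher in 3 and lower in 4 of 14, beside 21.4% and 20.3% of all genes. In the retinoid list 6 of 14 were lower and 3 higher, beside 20.3% and 21.4% of all genes. The embryonic synthesis enzyme Aldh1a2, of the renal stroma, was 4.82 in the E13.5 kidney and 0.85 in the transplant. The binding protein Crabp1 was 2.94 and -3.44. Another synthesis enzyme, Aldh1a3, was higher by 3.90, and the carrier Rbp4 by 5.40. Fetal renal stroma genes were as often higher as lower, 6 each of 16, with Foxd1 at -1.61 and Penk at 3.40. Immediate early genes, which respond within minutes to stimuli, were higher in 9 of 11, with Fos at 3.17 and Egr1 at 1.26.

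**Figure D3:**
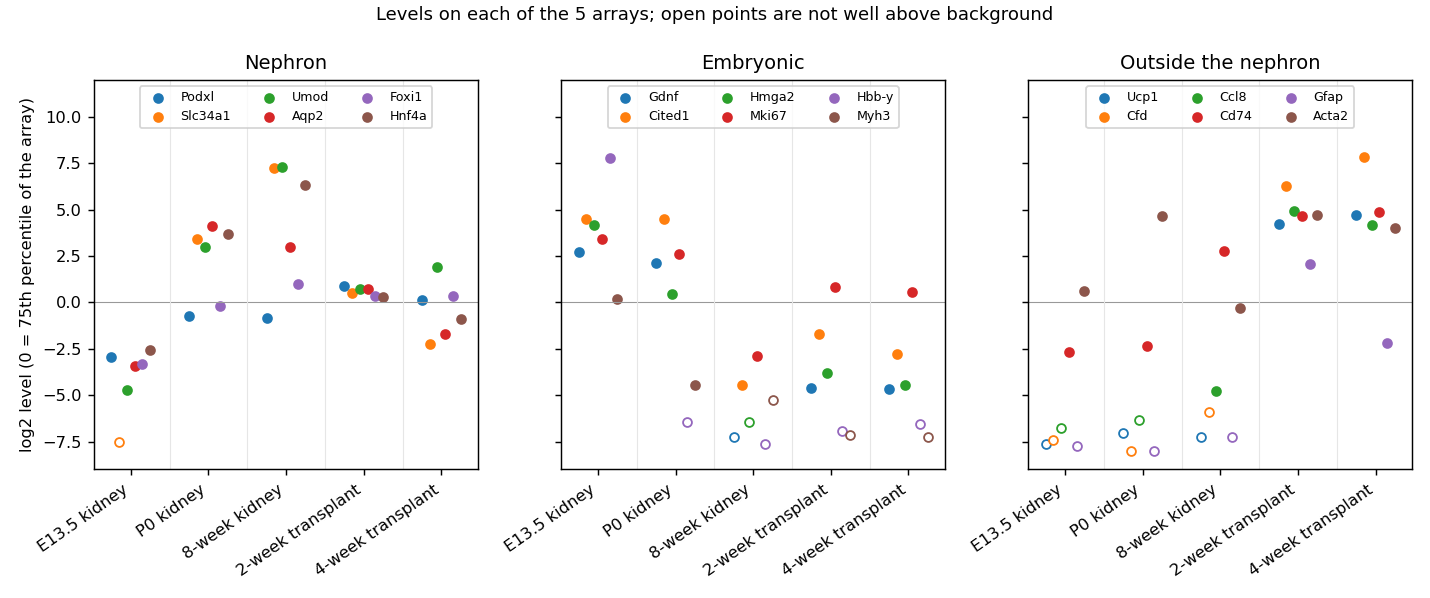
Log2 level (vertical axis) of 18 genes on each of the 5 arrays (horizontal axis), with open points where the probe was not well above background; 1 colour a gene, in 3 panels of nephron genes, embryonic genes and genes outside the nephron. Hbb-y is well above background in the E13.5 kidney only, and Ucp1 in the 2 transplants only.

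The blood in the tissues differed by stage. Hbb-y encodes a beta globin of the first, yolk-sac-derived red cells. Its level was 7.78 in the E13.5 kidney, and on none of the other 4 arrays was it well above background. The transplant level was therefore at least 16000-fold lower. The embryonic globins Hba-x and Hbb-bh1 had the same pattern, at 4.49 and 3.87 in the E13.5 kidney and at least 1633-fold and 1069-fold lower in the transplant. The adult globin Hbb-b1 differed by -0.23, with levels of 2.66 and 2.44, and Hba-a1 by -1.14. Of 13 red cell genes 9 were lower and none higher. Ahsp, the chaperone of alpha globin in red cell precursors, differed by -4.14 and the regulator Klf1 by -2.05, and the regulator Gata1 had a bound of -2.99.

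Genes of embryonic skeletal muscle were lower as well, in 8 of 11 and higher in none, with a median of -3.10. Myh3, the embryonic myosin heavy chain, was 0.19 in the E13.5 kidney and not well above background in the transplant, at least 83.1-fold lower. Myog, the regulator of muscle differentiation, was at least 20.1-fold lower, Actc1 differed by -6.70, and the receptor subunit Chrnd had a bound of -4.07. Their log2 summed level was 3.49 in the E13.5 kidney and 0.48 in the transplant. Myf5 and Myf6 were well above background on neither array. Of the 15 largest bounds on the lower side, 5 belonged to the red cell and muscle lists: Hbb-y, Hba-x, Hbb-bh1, Myh3 and Myog. Neuronal genes did not share a direction, with 6 of 18 higher and 4 lower, beside 21.4% and 20.3% of all genes. Dcx, of young neurons, differed by -3.99 by the probe used and by -1.0 by another.

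Vessel and connective tissue genes were higher. 17 of 21 endothelial genes were higher and none lower, with a median of 1.43. Pecam1 differed by 1.35, Plvap by 1.55, Emcn by 1.69 and Cdh5 by 1.43, while Kdr, the receptor that leads vessel growth, differed by -0.17. Vwf was highest at 4.15, with another probe at 1.77. Smooth muscle genes were higher in 9 of 12. Acta2, the contractile actin, was 0.59 in the E13.5 kidney and 4.70 in the transplant, next to 4.68 in the P0 kidney, and Actg2 was higher by 5.93 and Cnn1 by 5.28. Of 11 pericyte and mesangium genes 6 were higher and 1 lower. Rgs5 and Abcc9 were higher by 2.77 and 3.14, whereas Des differed by -2.07.

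Interstitial matrix genes were higher in 16 of 20 and lower in none, with a median of 2.47, against 0.95 for basement membrane genes, of which 7 of 15 were higher. Dcn, a proteoglycan that binds collagen fibrils, was 2.90 in the E13.5 kidney and 7.51 in the transplant, above all 3 kidney arrays. Fmod, of tendon and dense connective tissue, was higher by 6.83 and Lum by 4.80. The fibrillar collagens Col1a1, Col1a2 and Col3a1 were higher by 1.70, 2.42 and 2.53. As a family, 10 of 12 small leucine-rich proteoglycans were higher, with a median of 4.48, the highest of the families with at least 5 genes compared. 24 of 42 collagens were higher and 4 lower. Cartilage genes were higher in 7 of 14 and lower in 2, with a median of 1.03. The 2 lower ones were collagens, Col2a1 at -3.46 and Col9a1 at -4.42 by the probe used, while another probe of Col9a1 gave no difference. Other collagens of cartilage were higher, Col11a1 by 2.06, Col11a2 by 2.41 and Col10a1 by at least 2.39. Comp, a cartilage and tendon matrix protein, was higher by 6.05. Bone genes were higher in 7 of 10, with 6 of the 10 measured on 1 array only. Ibsp and Bglap were higher by at least 6.44 and 6.66. In the osteoclast list 3 of 6 were higher and 1 lower, with Ctsk and Acp5 higher by 4.09 and 4.16. Sost, made by mature osteocytes, was well above background on neither array, and Sp7 was at least 1.2-fold higher.

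Genes of the immune system were higher, beginning with those induced by interferons. 24 of 26 interferon response genes were higher and none lower, with a median of 4.29. Gbp3, a guanylate-binding protein, was -4.25 in the E13.5 kidney and 1.53 in the transplant. Isg15, a ubiquitin-like modifier, was -2.21 and 2.93, and the viral RNA sensor Oas1a was -2.98 and 1.56. Ifit1, which binds viral RNA, was not well above background in the E13.5 kidney and -1.54 in the transplant. Levels in the P0 kidney were intermediate, at -1.21, 1.81, -0.13 and -4.69 in the order of these genes. The interferon-stimulated response element was searched as GAAANNGAAA on either strand. It was present in 13 of 23 promoters of the list (56.5%), beside 3.44% of all promoters, 6.63% of those of genes at least 4-fold higher and 2.13% of those at least 4-fold lower. 4 promoters that hold overlapping or repeated elements are shown as above, 150 bases before the start (RefSeq, GRCm38.p6), with the elements in capitals, as GAAANNGAAA or as its complement.
Gbp3, chr3:142559894-142560043, plus strand: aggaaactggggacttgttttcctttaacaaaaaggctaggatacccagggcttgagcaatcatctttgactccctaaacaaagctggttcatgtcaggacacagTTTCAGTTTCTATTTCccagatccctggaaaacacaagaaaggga
Isg15, chr4:156200819-156200968, minus strand: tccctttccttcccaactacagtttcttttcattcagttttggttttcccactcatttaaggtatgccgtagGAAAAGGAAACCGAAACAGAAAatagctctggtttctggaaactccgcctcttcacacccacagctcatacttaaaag
Oas1a, chr5:120907526-120907675, minus strand: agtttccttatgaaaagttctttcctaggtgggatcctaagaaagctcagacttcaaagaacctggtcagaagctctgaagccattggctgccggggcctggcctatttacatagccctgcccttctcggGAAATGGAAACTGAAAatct
Ifit1, chr19:34640739-34640888, plus strand: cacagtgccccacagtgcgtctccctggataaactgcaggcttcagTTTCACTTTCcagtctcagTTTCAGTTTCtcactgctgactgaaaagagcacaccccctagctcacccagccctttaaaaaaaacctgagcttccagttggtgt
Isg15 held 3 overlapping elements that began 78, 72 and 66 bases before the start, Gbp3 and Oas1a 2 overlapping ones, and Ifit1 2 separate ones at 104 and 85 bases. Stat2, a factor that acts on such elements, differed by 0.02.

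Antigen presentation genes were higher in 15 of 16, with a median of 5.59, the highest of the 76 lists. Cd74, the invariant chain of class II molecules, was -2.70 in the E13.5 kidney and 4.63 in the transplant, 161-fold higher. The class II gene H2-Aa was higher by at least 6.86 and the class I gene H2-D1 by 7.16. Across the family of H2 genes 21 of 28 were higher and none lower. Ciita, the regulator of class II genes, differed by only 0.43. Their levels in the 4-week transplant were close to those at 2 weeks: Cd74 stood at 4.85 and H2-Aa at 0.85. H2 genes are near-identical to one another, so their probes may share signal and single values are uncertain.

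In the macrophage list, 16 of 18 genes were higher, each at least 4-fold, none was lower and the log2 summed level was 7.66 in the transplant against 3.74 in the E13.5 kidney. Csf1r, the receptor on which macrophages depend, was higher by 3.37 by the probe used and by 0.81 by another. Other members were higher too, Adgre1 by 4.62, the complement subunit C1qa by 5.29 and Mrc1 by 3.76. Fcgr1 and Itgam stayed within 2-fold, and probes of Itgam ranged from -0.61 to 2.5. Chemokines were higher in 21 of 29 and lower in none. Ccl8, which attracts monocytes, was not well above background in the E13.5 or the P0 kidney and stood at 4.94 in the transplant, at least 1826-fold higher. Neutrophil genes were higher in 8 of 13 and lower in none, with a median of 2.15, and 7 of the 13 were measured on 1 array only. S100a8 and S100a9, abundant calcium-binding proteins of the neutrophil cytosol, were higher by 5.21 and 6.05. The granule genes were mixed, with Mpo and Elane within 2-fold at 0.22 and 0.30, Mmp9 higher by at least 4.07 and Ngp by at least 0.16. In the T and NK cell list 8 of 17 were higher and 1 lower, with a median of 0.76. Gzma was higher by at least 5.78 and Cd2 by at least 3.67, with another probe of Cd2 at 0.02, but Cd3e, Cd4 and Cd5 stayed within 2-fold, and Cd8a was well above background on neither array. B cell genes were thinly measured: 4 of 10 could be compared and Ms4a1 and Pax5, among others, could not. Of 9 mast and dendritic cell genes 4 were higher and 1 lower, with a median of 0.01. Itgax, of dendritic cells, was higher by at least 6.59, while Zbtb46, their transcription factor, differed by 0.01 and the mast cell protease Cpa3 by -1.02.

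Complement genes were higher in 19 of 21, in both the classical and the alternative pathway. C1ra and C1s1 of the classical pathway were higher by 5.99 and 4.21, and Cfb of the alternative pathway by at least 7.91. Masp1 of the lectin pathway was the exception, at -2.64. Acute phase genes, usually made by liver, were higher in 10 of 11, but 8 of the 11 were measured on 1 array only. Hp, which binds free haemoglobin, was -3.50 in the E13.5 kidney and 4.09 in the transplant, and Saa3 was higher by at least 6.44. Hepatocyte genes were divided, with 3 of 6 compared higher, 1 lower and a median of 1.11. Trf, the iron carrier of plasma, was higher by 4.43 and Ahsg by 1.75, Afp differed by -0.83, Alb had a bound of -1.44, and Apob and Apoa1 were well above background on neither array.

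**Figure D4:**
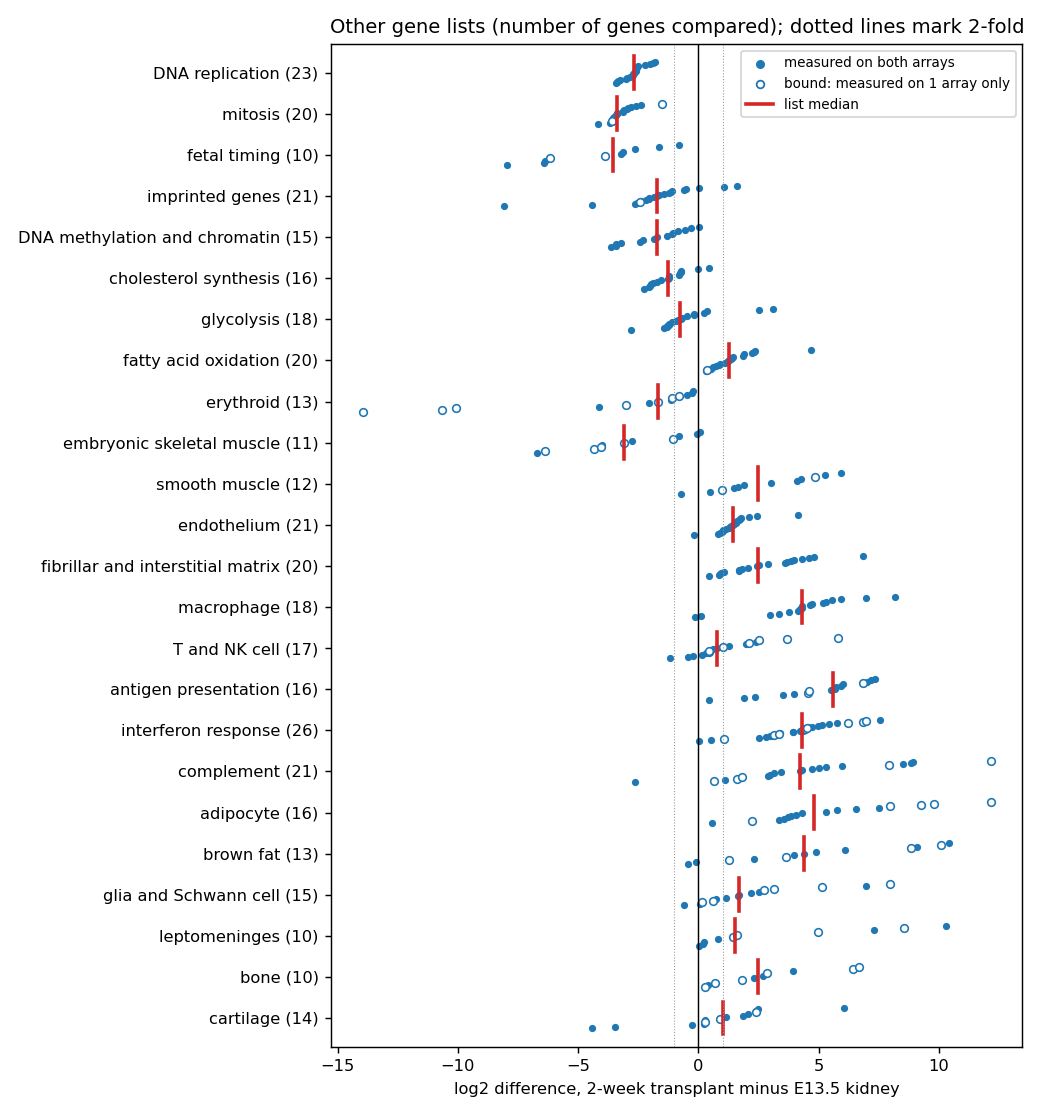
Difference in log2 level, transplant minus E13.5 kidney (horizontal axis), of every compared member of lists for cell types and functions outside the nephron (rows), drawn as in the plot of the nephron lists. The antigen presentation list has a median of 5.59 and the mitosis list one of -3.38.

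Genes of fat cells were higher. 15 of 16 adipocyte genes were higher, none was lower, and the median was 4.80. Cfd, a serine protease secreted by fat cells, was not well above background in the E13.5, P0 or 8-week kidney, and was 6.27 in the 2-week and 7.81 in the 4-week transplant. Plin1, the coat protein of fat droplets, was higher by at least 7.98. Brown fat genes were higher in 11 of 13, with a log2 summed level of 7.01 in the transplant against 0.71 in the E13.5 kidney. Ucp1, the uncoupling protein that defines heat-producing fat, was not well above background in any kidney and was 4.20 and 4.73 in the transplants, at least 1090-fold higher at 2 weeks. Cidea was -3.85 in the E13.5 kidney and 5.25 in the transplant, and Cox7a1, Adrb3 and Dio2 were higher by 6.11, 4.37 and 3.98. Of the regulators in the list, Prdm16 and Ebf2 stayed within 2-fold, at -0.10 and -0.45. The transcription factors Lhx8 and Zic1 were higher by at least 1.25 and 8.84, with another probe of Zic1 at 3.07. Slc36a2, an amino acid transporter of kidney and brown fat, had the largest difference of 334 solute carrier genes, at least 205-fold. It was not well above background in the 8-week kidney.

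Genes of the nervous system were higher in part. Of 15 glial genes 10 were higher and none lower. Gfap, the filament of astrocytes and non-myelinating Schwann cells, was not well above background in any of the 3 kidneys. It was 2.05 in the 2-week transplant, at least 247-fold higher than in the E13.5 kidney, and -2.18 in the 4-week transplant. The smallest bound among its 3 probes was 3.22. Olig1, of the oligodendrocyte lineage, was higher by at least 5.12 and Sox10 by 2.19. Myelin genes were divided, with Mag higher by 1.65 but Mog at -0.59 and Mbp at 0.06, another probe of Mbp giving 2.17. In the leptomeninges list 6 of 10 genes were higher. Ptgds was -4.50 in the E13.5 kidney and 5.79 in the transplant, and the gap junction genes Gjb2 and Gjb6 were higher by 7.31 and at least 8.53. Zic2 was higher by at least 4.97, and Zic1 by at least 8.84, with another probe at 3.07. Several of these genes have other sites of expression, Gjb2 for one standing at 3.32 in the 8-week kidney. Zic1 is also in the brown fat list, where 11 of 13 genes were higher. The part of brown fat in the Zic1 difference was not tested. Of 9 choroid plexus genes 7 were higher, among them Ttr by at least 5.38, while Otx2, their regulator, differed by -1.32.

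Markers of several other tissues had no common direction. Adrenal cortex genes were lower in 2 of 5 and higher in none, and Cyp11a1, Cyp11b1 and Cyp11b2 were well above background on neither array. Of 8 chromaffin cell genes 3 were higher and 1 lower, with a median of 0.58. The vesicular amine transporter Slc18a1 was higher by 2.16 and Dbh, which makes noradrenaline, by 1.43. Th, the first enzyme of that pathway, differed by 0.52, and Pnmt, which makes adrenaline, by -2.76. Epidermal genes were within 2-fold in 6 of 8. Of 6 urothelial genes compared 3 were higher, with Upk3a at -1.61 in the transplant, at least 19.4-fold above the E13.5 kidney, and at 4.00 in the 4-week transplant. Olfactory receptor genes have no known role here. Of 1083, only 126 could be compared, and 57 of these were measured on 1 array only. Among the 126, 14 were higher and 15 lower, with a median of 0.00. Bounds lie nearer 0 than full differences, so these shares are no background for well measured lists.

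**Figure D5:**
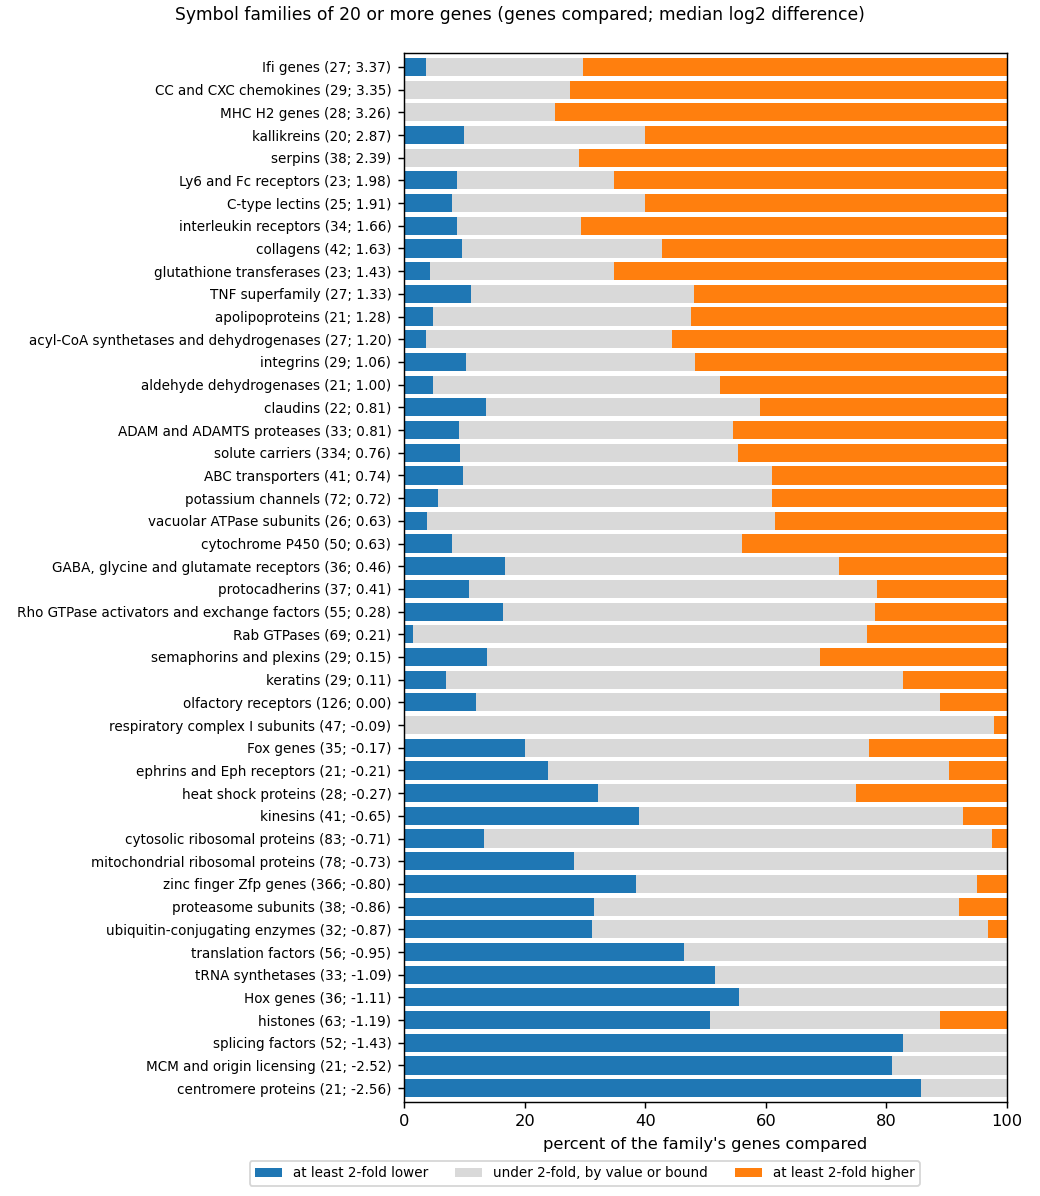
Share of genes at least 2-fold lower, under 2-fold by value or bound, and at least 2-fold higher in the transplant (horizontal axis, percent of genes compared) in the 46 symbol families with 20 or more genes compared (rows), with that number and the median log2 difference in brackets. The median is highest in the Ifi genes, at 3.37, and lowest in the centromere proteins, at -2.56.

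Families defined by their symbols alone were also described. Of 78 families with at least 5 genes compared, 27 had a median at least 2-fold higher and 8 a median at least 2-fold lower. Of the transport families, aquaporins had a median of 4.29, whereas that of the solute carriers was 0.76, under 2-fold. 149 of 334 solute carriers, which serve all tissues, were higher and 31 lower, beside 21.4% and 20.3% of all genes. Their log2 summed level was 9.34 in the transplant and 9.31 in the E13.5 kidney. 7 of 9 aquaporins were higher, Aqp6 by at least 6.70. In drug-handling families, 8 of 11 UDP-glucuronosyltransferases were higher, with a median of 3.02, but 8 of the 11 were measured on 1 array only. Glutathione transferases were higher in 15 of 23, with a median of 1.43. Cytochrome P450 genes were higher in 22 of 50, with a median of 0.63, under 2-fold, and 19 were measured on 1 array only. Serpins were higher in 27 of 38 and toll-like receptors in 10 of 12, with no gene lower in either family. Histone genes were lower in 32 of 63. Cadherins, frizzled receptors, semaphorins and dyneins showed medians between -0.09 and 0.54.

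Genes that differed at least 4-fold in the same direction also lay side by side. In the RefSeq order of 17380 genes, 23 runs of at least 4 neighbours were higher, with 113 genes, and 3 runs were lower, with 20 genes. Most runs were clusters of related genes. The longest, of 12 lower genes on chromosome 14 with a median of -2.4, held gene models without an established name. The longest higher run, of 10 genes on chromosome 4, held major urinary protein genes such as Mup1, Mup3 and Mup20, with a median of 4.48. These are near-identical copies, as are the Klk1b kallikreins on chromosome 7, the Ugt2b genes on chromosome 5 and the Serpina1 genes on chromosome 12, and probes may share signal within each cluster. Klk1b5 was not well above background in the E13.5 kidney and 4.83 in the transplant, and the 5 genes of its run had a median of 9.41. Runs of less similar genes followed functions described above. Psmb9, Tap1, Psmb8 and Tap2 on chromosome 17, which make and load peptides for class I molecules, had a median of 5.80. Ecm2, Aspn, Omd and Ogn on chromosome 13, which encode leucine-rich matrix proteins, had one of 4.65, and Sparcl1, Dmp1, Ibsp, Mepe and Spp1 on chromosome 5, matrix genes of bone and related tissues, one of 3.02. The chemokines Ccl5, Ccl9, Ccl6, Ccl3 and Ccl4 lay together with 3 Wfdc genes on chromosome 11, at 5.22. The other 2 lower runs, on chromosome 13, were histone genes, with medians of -3.08 and -2.54.

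The 15 largest differences in each class also held genes not named so far, whose tissue of origin was not examined. Among the higher genes measured on both arrays were Htra1, Apod, Ltbp2 and Aoc3, the last with a second probe at -0.35, and Tgtp2, an interferon-induced GTPase with a second probe at 0.33. Among the lower genes were Pcdh8, Sox11, Dusp9, Exo1 and Ntsr1, the last with a second probe at -1.28, with Sox11, a regulator of embryonic progenitors, at 2.5 and -2.92. Syt10, a synaptotagmin, had the largest lower difference of all genes measured on both arrays, with levels of 3.92 in the E13.5 kidney and -5.49 in the transplant. It stood at 2.31, 3.28 and 1.49 on the P0, 8-week and 4-week transplant arrays, so that the 2-week array alone was low. Thrsp, a lipogenic factor, led the transplant-only genes outside the groups named so far, at 3.94. Fndc3c1, Crh, Rbm11 and Jph1 were measured in the E13.5 kidney only, and were at least 128-fold, 63.9-fold, 31.1-fold and 28.9-fold lower in the transplant.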

How the data were processed

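Gene expression was measured on 1 one-colour (Cy3) Agilent array for each of the 5 tissues. The samples were grouped by their titles. The deposited scanner files give the intensity of each spot, with its background subtracted by the scanner software, which the submitters' processing notes name as Agilent Feature Extraction 10.7.3.1. Other deposited columns flag spots that were well above background, saturated or outliers and give the median signal and background intensity, per the file headers. The authors' deposited gene table holds log2 values. Of its values, 99.7% lay within 0.01 of the scanner values without a percentile shift, once probes of a gene were averaged and each of 30170 rows was centred on its median, and 18.2% did after a shift by the 75th percentile. The arrays' annotation grid is on another build than the RefSeq tables, so gene coordinates are given for promoter sequences only.

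From each log2 intensity, log2 of the 75th percentile of the 43020 non-control spots was subtracted (1619.7 in the E13.5 kidney and 1713.4 in the transplant). 447 outlier spots were dropped, and saturation did not occur. 63.4% of spots were well above background in the E13.5 kidney and 69.1% in the transplant. 31795 probes were named by gene identifier, 2026 by the authors' symbol and 19 by accession, and 5589 stayed unnamed. A gene was represented by its probe of highest mean level over all arrays. For a gene measured on 1 array only, the dim value was raised, where it was lower, to the faintest level that counted as well above background there, and a bound that would turn the direction entered as 0.

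With 1 array per tissue no test was made, and the number of arrays limits the precision. The genes, the 76 gene lists (1022 different genes, 965 compared, 5 members unmatched) and the 80 symbol families were chosen with earlier results of these data known. Named genes were the 15 largest differences in each direction, measured on both arrays or on 1, members of a list, the extreme members of a family and members of a run of neighbours. Gene-model names were left out, and several list members are not reported here. The steps were checked on simulated data. Alternatives were normexp background correction with and without negative controls, quantile normalization, a shift by the median, the authors' table, the mean over probes, and other filters on dim probes. Python 3.11.15, numpy 2.4.6, pandas 2.3.3 and limma 3.58.1 in R 4.3.3 were used.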

Additional observations from a re-analysis of the deposited data

How the results depend on the processing

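Of 76 list medians and 78 family medians, 46 and 35 were past 2-fold. Normexp with negative controls left 140 of these 154 medians in the same direction and on the same side of 2-fold, quantile normalization 144, a shift by the median 137, the authors' values 145, the mean over probes 144, no filter 145 and the filter on both arrays 147. Some medians moved across 2-fold, not only those near it. Without the filter the interleukin median was 0.03, against 1.93, and the hepatocyte median 0.14, against 1.11. In the authors' table the mast and dendritic cell median was 1.89, against 0.01, and the T and NK cell median 1.70, against 0.76. The podocyte median was 0.98 with normexp and negative controls, and the leptomeninges median 0.92 with that setting and 0.52 on both arrays. The erythroid median was -0.82 on both arrays, where the embryonic globins drop out, and the Hox median -0.97 in the authors' table. The kallikrein median turned to -0.34 on both arrays, where the Klk1b genes drop out. No other median past 2-fold turned under these settings. Of the 312 named genes none past 2-fold turned, although the filter on both arrays leaves 227 of them. The count of genes at least 4-fold lower was 1509 with a shift by the median. Plain normexp gave 606 higher and 3305 lower genes. Its E13.5 fit had a background mean of -992. Of 33 list medians past 2-fold higher, 5 turned negative with it and 6 stood at 0. Of 13 lower ones, 0 turned positive. Of 181 named genes past 2-fold higher, 15 turned negative with it, and of 84 lower ones 0 turned positive. The background limits genes measured on 1 array, whose differences are bounds, and 182 of the 1951 measured on the transplant array only had a bound of 0. Of 5229 genes with more than 1 measured probe, 44 had probes at least 2-fold apart in opposite directions.

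No paired analysis was possible because each tissue has 1 array.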

Other observations

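The 2-week transplant array stood apart from all of the other 4 arrays for a small set of genes, which were picked after their values were seen. At a gap of at least 8-fold to the nearest of the other arrays, 33 named genes were higher on it. Genes of bone and of the nervous system were among them. Bglap3 was 3.90 on the 2-week array and at most -0.01 elsewhere, and Bglap2 was 3.50 against at most -0.58. Dmp1, a matrix protein of bone, was -3.04 and on no other array above -7.21. Gpr17, of oligodendrocyte precursors, was 0.82 against at most -3.24, and Scrg1 was -0.13 against at most -3.84. Vxn stood at -0.97 and Cntn6, a neural adhesion molecule, at -1.61. Olfr952, Olfr77 and Zfp874a were also high on the 2-week array alone, with gaps of 6.14, 5.61 and 4.84, although a second probe of Zfp874a gave a difference of 0.15 from the E13.5 kidney.

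In the other direction 7 named genes were at least 8-fold below all of the other 4 arrays, where each of them was well above background. Beside Syt10 and Mirg, with gaps of 6.98 and 5.31, they were Ifi202b, Hsd3b6, Prom2, Tox4 and Pla2g4d. Tox4 was -1.0 on the 2-week array and between 2.38 and 3.47 on the others, while a second probe of Tox4 differed by only -0.25 from the E13.5 kidney.

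Of 2903 probes without a gene name that were compared, 114 (3.93%) were at least 4-fold higher in the transplant and 170 (5.86%) lower.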
